A study of Mus musculus with 4 samples.

Results

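The genes described here are 10 genes around FOXO factors, insulin signaling and the restraint of growth signaling: Foxo1, Foxo3, Klf2, Pik3ip1, Irs2, Ddit4, Sesn1, Trp53inp1, Txnip and Pdcd4. They are 10 of the 31053 genes in the deposited matrices. They were chosen by their change between 4 °C and 30 °C in these same cells, with results of that contrast known, so the change between temperatures is given as a description and carries no test. The cells were live, green-fluorescent singlets sorted from the stromal vascular fraction of inguinal white adipose tissue of male ChATBAC-eGFP mice, in which a bacterial artificial chromosome with Chat regulatory sequence drives eGFP, so every group is limited to cells that the transgene marks. All mice entered 30 °C housing at 5 weeks of age and stayed for 3 weeks. The 30 °C group stayed there for 4 h more, whereas the 4 °C group spent 4 h at 4 °C after a day at room temperature, so cold and the move through room temperature cannot be told apart. Each temperature had 2 libraries of 10x Genomics 3′ single-cell RNA-seq, each from 4 pooled mice.

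When growth factors or insulin are scarce, the phosphoinositide 3-kinase (PI3K) and AKT kinases are quiet, and FOXO transcription factors stay in the nucleus and switch on genes that slow growth. AKT signaling drives FOXO proteins out of the nucleus and, through the kinase complex mTORC1, promotes protein and lipid synthesis. In lymphocytes FOXO1 is known for maintaining the homing and survival receptors of quiescent cells, and it acts upstream of KLF2.

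The matrices held 26654 cells, of which 21253 passed the filters (5191 to 5388 per library) and 18843 fell into 1 of 5 lineages by the number of marker genes with at least 1 unique molecular identifier (UMI). Deposited UMIs per library ranged from 76058112 to 84468931, and the median UMIs per kept cell from 7520 to 8068. The median mitochondrial share was 4.88% to 4.95% at 30 °C and 4.26% to 4.56% at 4 °C. Each gate was set on its own markers, so the following means describe the gates and do not check their labels. On average B cells had 7.43 of 8 B markers and T cells 6.51 of 8 T markers. Macrophages had 9.05 of 10 macrophage markers and dendritic cells 5.84 of 10 dendritic markers. Innate lymphoid cells had 4.09 of their 8 markers together with 2.74 of the 8 T markers, so that gate is the least separate of the 5. A cell was counted as cycling with UMIs of at least 7 of 15 cell-cycle genes, which 1688 gated cells had. At or next to the limit, with 6 or 7, lay 178 gated cells, of which those with 7 are among the 1688. In all, 81 cell barcodes occurred in more than 1 library.

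Values below are CPM, the UMIs of a gene summed over the cells of 1 population in 1 library as a proportion of all UMIs of that sum, scaled by TMM within each population, so levels of different populations compare only roughly. Cells of a library are not replicates, so each comparison has 2 sums per temperature. Unless cycling is named, a population means its cells outside the cycle: 8520 B cells, 6557 T cells, 898 innate lymphoid cells, 291 dendritic cells and 889 macrophages. Macrophage numbers differed between libraries, with 143 and 170 at 30 °C and 420 and 156 at 4 °C.

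Most of the 10 genes had lower levels at 4 °C, some of them in every population and others in a few. Ddit4, Pik3ip1, Trp53inp1, Txnip and Pdcd4 were lower in both 4 °C libraries than in both 30 °C libraries in all 8 populations examined, cycling cells included. Sesn1 was lower without overlap in 6 of the 8, Irs2 in 5, Klf2 in 3, and Foxo1 and Foxo3 in 2 each. Over the 80 gene and population pairs, 58 were lower without overlap, 3 were higher without overlap and 19 overlapped.

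By population, the genes lower without overlap numbered 7 of 10 in B cells, where 28.5% of all genes tested were lower without overlap. The count was 8 in T cells (27.8% of all genes), 9 in innate lymphoid cells (26.6%), 7 in dendritic cells (22%) and 7 in macrophages (29.5%). In cycling cells it was 6 in B cells (19.4%), 8 in T cells (26.5%) and 6 in innate lymphoid cells (20.8%). Because these genes were chosen for this contrast, nothing is read from those counts. All 10 passed the filter on low counts except Sesn1 and Foxo3 in cycling innate lymphoid cells. The median log2 fold change of the 10 genes was -0.73 in B cells, -0.85 in T cells, -0.85 in dendritic cells and -0.66 in macrophages, and over the 8 populations it lay between -1.03 and -0.49. The median over all genes tested was -0.01 or 0.00 in each.

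**Figure D1:**
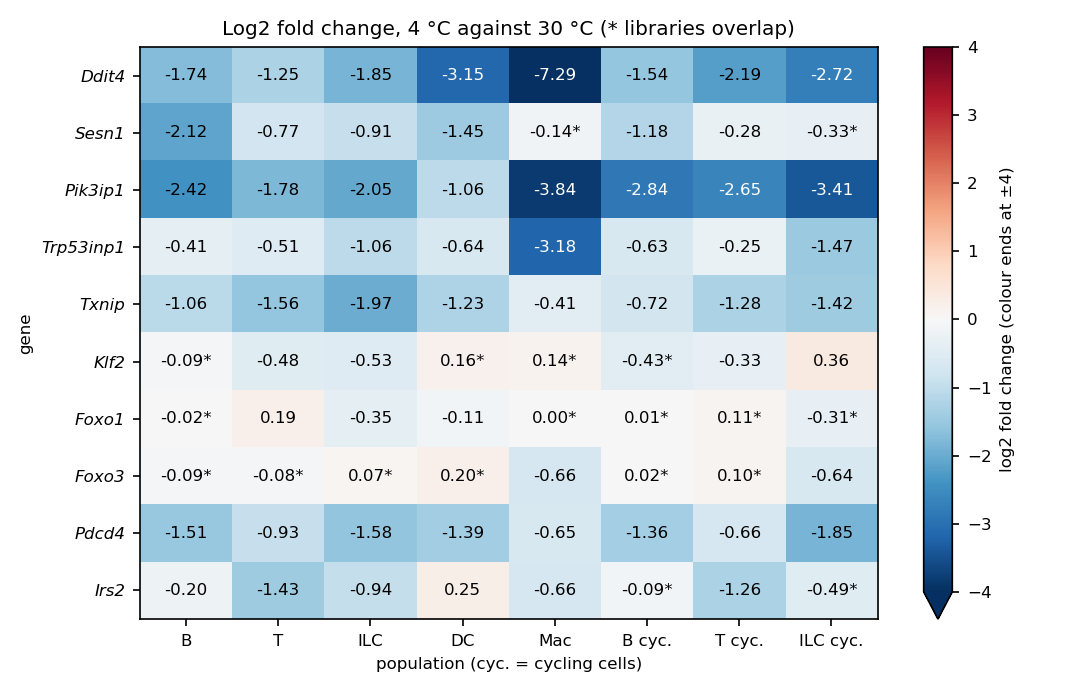
Log2 fold change of each gene (rows) at 4 °C against 30 °C in 8 populations (columns, cyc. for cycling cells), from 2 library sums per temperature. Asterisks mark pairs whose libraries overlapped. The 5 genes Ddit4, Pik3ip1, Trp53inp1, Txnip and Pdcd4 are negative and without asterisk in every column, and Ddit4 in macrophages, at -7.29, lies beyond the colour scale.

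The FOXO genes themselves overlapped between temperatures in several populations. In the text that follows, CPM of the 30 °C libraries are given first and those of the 4 °C libraries second. Foxo1 (chr3:52268336-52353221, mm10) was at 77.8 and 78.7 CPM in B cells against 70.5 and 83.1 CPM. Its B cell libraries overlapped, with a log2 fold change of -0.02 (SE 0.07). In T cells Foxo1 was higher in the cold, at 85.9 and 88.8 CPM against 97.3 and 103 CPM, a log2 difference of 0.19 (SE 0.06). In innate lymphoid cells it was lower, at 47.3 and 43.2 CPM against 36.8 and 33.6 CPM (log2 -0.35, SE 0.18), a value that was -1.64 under a stricter gate with 28 to 50 such cells per library. Foxo3 (chr10:42181841-42276755), the other main FOXO factor of immune cells, overlapped between temperatures in B, T, innate lymphoid and dendritic cells. In macrophages its libraries separated, at 64.9 and 54.3 CPM against 39.1 and 34.7 CPM (log2 -0.66, SE 0.17), and in cycling innate lymphoid cells they did so on 1 to 14 UMIs. Whether these changes differ between lineages was not tested.

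Klf2 (chr8:72319033-72321656) encodes a zinc-finger factor that keeps lymphocytes quiescent and sustains their exit receptors. It was lower at 4 °C in T cells, at 308 and 272 CPM against 224 and 192 CPM (log2 -0.48, SE 0.08), and in innate lymphoid cells, at 439 and 477 CPM against 292 and 348 CPM (log2 -0.53, SE 0.08). With each T cell given equal weight, the T cell value was -0.32. Under the stricter gate the innate lymphoid value was -0.80. B cells overlapped, at 361 and 292 CPM against 273 and 340 CPM. Macrophages overlapped too, at 433 and 590 CPM against 638 and 481 CPM. Dendritic cells had 9 to 57 Klf2 UMIs per library and spanned 11.1 to 50.9 CPM at 30 °C alone, so their log2 value of 0.16 (SE 0.52) has little precision.

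Of the genes on the insulin and PI3K side, Pik3ip1 was lower in every population. Pik3ip1 (chr11:3330401-3342971) encodes a membrane protein that binds PI3K and restrains it. B cells were at 92.1 and 88.2 CPM against 16.3 and 17.2 CPM, 5.37-fold lower (log2 -2.42, SE 0.07). T cells were at 71.8 and 70.7 CPM against 20.6 and 20.8 CPM, and innate lymphoid cells at 95.3 and 125 CPM against 26.6 and 26.4 CPM. The groups were thus several-fold apart with little spread inside either. Macrophages had 40.8 and 32.8 CPM against 3 and 1.36 CPM. Their 108 UMIs at 30 °C and 13 at 4 °C gave a ratio of 13.8 relative to all UMIs, with an exact 95% interval of 7.77 to 26.8 that covers counting error only. Here too free RNA may be part of the cold UMIs, and the ratio may then be too small. In dendritic cells the log2 value was -1.06 (SE 0.32), and -0.62 under the stricter gate with 24 to 67 such cells per library.

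Irs2 (chr8:10984681-11008458), the adaptor that couples insulin and cytokine receptors to PI3K, varied by lineage. Innate lymphoid cells had the highest level, 146 and 147 CPM against 82.8 and 67.1 CPM (log2 -0.94, SE 0.12). T cells were at 23.9 and 24.5 CPM against 10.6 and 7.3 CPM (log2 -1.43, SE 0.17). In B cells the groups were close, at 22.2 and 23.4 CPM against 19.8 and 20 CPM (log2 -0.20, SE 0.08). Dendritic cells showed slightly higher Irs2 in the cold, from 10 to 29 UMIs per library (log2 0.25, SE 0.34). The macrophage value of -0.66 depended on the first cold library, without which it was -0.29.

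The T cell value of Irs2 was smaller without cells that had γδ T cell receptor transcripts. T cells with UMIs of both Trdc and Tcrg-C1 numbered 136, 156, 105 and 28 in the 4 libraries, the lowest number being in the second cold library. In them Irs2 was at 83.3 and 98.2 CPM against 33.9 and 11.7 CPM, the last from 3 UMIs. T cells without any γδ receptor UMI had 12.5 and 11.6 CPM against 7.35 and 7.2 CPM, and their log2 fold change was -0.72 (SE 0.15). For Ddit4, Pik3ip1 and Txnip, T cells without γδ receptor UMIs gave -1.36, -1.75 and -1.65, close to the whole gate.

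Ddit4, which encodes REDD1, had the widest range of differences. REDD1 is a stress-induced inhibitor of mTORC1 that acts through the TSC complex, and glucocorticoids, hypoxia and energy stress are known to induce its gene (chr10:59949669-59951834). In macrophages Ddit4 was at 404 and 345 CPM against 2.73 and 1.36 CPM. These were 554 and 546 UMIs against 10 and 2 UMIs, a ratio of 153 relative to all UMIs with an exact 95% interval of 87.1 to 297 for counting error. Free RNA may account for the cold UMIs, so the ratio of the cells' own transcripts may be larger. Only 1 of the 8945 genes tested in macrophages had a more negative log2 fold change. Dendritic cells were at 61.7 and 47.5 CPM against 6.07 and 6.16 CPM (log2 -3.15, SE 0.34). T cells were at 197 and 178 CPM against 73.3 and 83.6 CPM (log2 -1.25, SE 0.08). B cells were at 47.3 and 48 CPM against 11.7 and 16.4 CPM (log2 -1.74, SE 0.11), and innate lymphoid cells at 190 and 195 CPM against 51.6 and 55.1 CPM (log2 -1.85, SE 0.12).

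Sesn1 was several-fold lower in B cells and overlapped in macrophages. Sestrin 1 restrains mTORC1 through the amino-acid-sensing GATOR complexes, and its gene (chr10:41809935-41908424) is a known FOXO and p53 target. B cells were at 135 and 128 CPM against 27.4 and 32.6 CPM, 4.36-fold lower (log2 -2.12, SE 0.08). Macrophages overlapped at 141 and 159 CPM against 146 and 123 CPM (log2 -0.14, SE 0.13). T cells lay between, at 58.5 and 59.5 CPM against 36.5 and 32.6 CPM (log2 -0.77, SE 0.08). The innate lymphoid value of -0.91 (SE 0.25) became -0.59 without the first 30 °C library and -1.36 under the stricter gate. Dendritic cells had 2 to 12 UMIs per library, with a value of -1.45 (SE 0.65). That value became -2.82 without the first cold library, -0.81 without the second and -0.62 under the stricter gate.

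**Figure D2:**
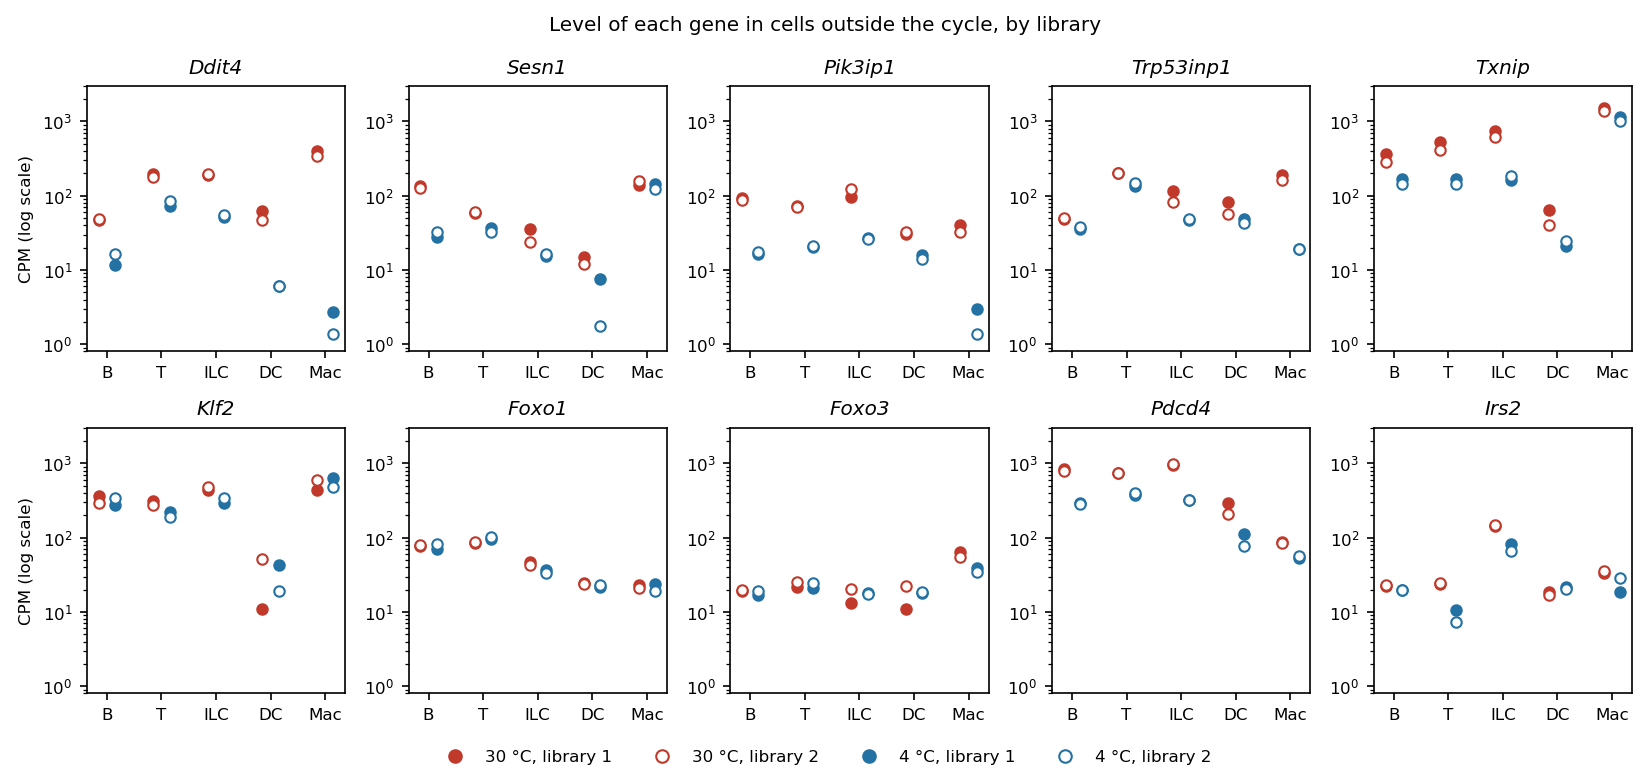
CPM on a logarithmic axis for each gene in B, T, innate lymphoid (ILC) and dendritic (DC) cells and macrophages (Mac) outside the cycle. Each point is 1 library, red for 30 °C and blue for 4 °C, filled for library 1 and open for library 2. Ddit4 in macrophages lies at 404 and 345 CPM against 2.73 and 1.36 CPM, whereas Sesn1 in macrophages overlaps.

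Trp53inp1 (chr4:11156431-11174379) encodes a p53-induced protein that takes part in autophagy and cell death. In macrophages it was at 189 and 162 CPM against 19.4 and 19.1 CPM, 9.06-fold lower (log2 -3.18, SE 0.16). In T cells it was at 201 and 201 CPM against 136 and 147 CPM (log2 -0.51, SE 0.06), and in B cells at 48.2 and 49.7 CPM against 36.1 and 37.6 CPM (log2 -0.41, SE 0.06). The dendritic value of -0.64 (SE 0.24) was -0.31 without the first 30 °C library.

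Txnip encodes an α-arrestin that lowers glucose uptake and binds thioredoxin, and both FOXO factors and the glucose-sensing factor MondoA are known to drive it. Innate lymphoid cells had 750 and 619 CPM against 165 and 186 CPM, 3.92-fold lower (log2 -1.97, SE 0.09). T cells were at 524 and 407 CPM against 169 and 146 CPM (log2 -1.56, SE 0.11), and B cells at 359 and 283 CPM against 166 and 142 CPM (log2 -1.06, SE 0.10). Macrophages held the highest level at both temperatures and the smallest difference, 1511 and 1376 CPM against 1150.5 and 1015 CPM (log2 -0.41, SE 0.10). With equal weight per cell the macrophage value was -0.24.

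Pdcd4 (chr19:53892231-53929860), an inhibitor of the translation factor eIF4A that growth signaling marks for destruction, was lower in every population. It was at 852 and 797 CPM against 297 and 281 CPM in B cells (log2 -1.51, SE 0.05). Innate lymphoid cells had 959 and 968 CPM against 324 and 322 CPM (log2 -1.58, SE 0.06), and T cells 746 and 737 CPM against 376 and 402 CPM (log2 -0.93, SE 0.05). The libraries of each temperature lay close together in these lymphoid populations. In macrophages the level was lower, at 87.5 and 84 CPM against 52.7 and 57.2 CPM (log2 -0.65, SE 0.14).

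The promoters of Txnip and Irs2 are shown because both genes were lower in T and innate lymphoid cells and each held a short motif that FOXO proteins bind. The search covered the 250 bases before the start of 9 of the 10 genes in RefSeq (build GRCm38.p6), 11 promoters in all since Pdcd4 and Sesn1 have 2 each. Trp53inp1 was not searched. On either strand, GTAAACA occurred in 3.17% and CAAAACA in 5.56% of 32851 promoters, and in 1 of the 11 each (Txnip and Irs2). The E-box CACGTG occurred in 6.02% of promoters and in that of Irs2. The glucocorticoid receptor half-site AGAACA occurred in 16.1% of promoters and in none of the 11. A match of letters is a description and not a bound site. The sequences run 5′ to 3′ on the gene's strand, and capitals mark GTAAACA in Txnip and, in Irs2, the E-box followed by CAAAACA read on the opposite strand.
Txnip, chr3:96557707-96557956, plus strand: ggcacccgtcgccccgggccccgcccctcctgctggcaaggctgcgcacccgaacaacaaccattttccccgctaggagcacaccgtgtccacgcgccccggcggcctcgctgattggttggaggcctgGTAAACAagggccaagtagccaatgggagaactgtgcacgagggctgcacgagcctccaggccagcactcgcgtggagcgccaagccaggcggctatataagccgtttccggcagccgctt
Irs2, chr8:11008930-11009179, minus strand: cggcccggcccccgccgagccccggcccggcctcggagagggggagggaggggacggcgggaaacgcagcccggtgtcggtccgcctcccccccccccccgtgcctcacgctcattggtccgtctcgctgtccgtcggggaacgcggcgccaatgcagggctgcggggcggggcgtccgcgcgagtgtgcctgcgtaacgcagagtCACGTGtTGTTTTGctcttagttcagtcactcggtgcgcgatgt

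The share of cells with a transcript differed as well. Each cell was thinned to 3000 UMIs, which left out 10, 14, 34 and 16 macrophages, 7, 19, 7 and 2 B cells and 0, 1, 1 and 0 innate lymphoid cells with fewer. In macrophages, 65.4% and 59% of cells had a Ddit4 UMI at 30 °C and 0.777% and 0.714% at 4 °C. Without thinning the shares were 79.7%, 76.5%, 1.9% and 1.28%. Free RNA adds to such shares by an amount that varies with the transcript: at the thinned depth the macrophage transcript C1qa was found in 0.431% to 1.46% of B, T and innate lymphoid cells, and the B cell transcript Cd79a in 0% to 7.05% of cells of other lineages. The cold macrophage shares of Ddit4, and of Pik3ip1 at 0.518% and 0.714%, are within these ranges and cannot be told apart from background.

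Among B cells, the share with a Sesn1 UMI was 33.7% and 31.8% at 30 °C and 8.66% and 9.97% at 4 °C (unthinned 62.2%, 57%, 20.9% and 25.2%). The share with Pik3ip1 was 25.4% and 23.5% against 5.17% and 5.2% (unthinned 49.4%, 44.7%, 12.5% and 13.3%). Sesn1 in macrophages, by contrast, was found in 33.8% and 34.6% of cells at 30 °C and 38.1% and 30% at 4 °C (unthinned 60.1%, 62.9%, 65.5% and 59%). Irs2 was found in 29% and 26.3% of innate lymphoid cells at 30 °C and in 12.4% and 12.6% at 4 °C (unthinned 49%, 48.5%, 32.2% and 28.1%). Pdcd4 stayed detectable in 54.8% and 53.7% of cold B cells, after 86% and 82.4% at 30 °C (unthinned 97.4%, 95.4%, 81.6% and 79.8%).

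The genes were also measured in subsets of the lineages, without a test of the difference between subsets. B cells without an Ighd UMI, which are depleted of naive cells, had Sesn1 at 110 and 90.5 CPM against 19.2 and 23.5 CPM and Pik3ip1 at 75.7 and 60.4 CPM against 11.9 and 14.3 CPM. T cells with a Foxp3 UMI, the regulatory lineage factor, had Ddit4 at 229 and 228 CPM against 87.8 and 97.4 CPM, and T cells without one had 171 and 147 CPM against 62.5 and 73.1 CPM. Sesn1 was at 81.3 and 80.5 CPM against 56 and 51 CPM in the Foxp3 cells (log2 -0.60, SE 0.10) and at 40.6 and 46.6 CPM against 21.9 and 18.6 CPM in the others (log2 -1.11, SE 0.13). In macrophages with an Itgax or Trem2 UMI, genes that mark lipid-associated macrophages, Ddit4 was at 128 and 149 CPM against 2.79 and 1.65 CPM, the latter from 3 UMIs and 1 UMI (log2 -5.76, SE 0.40, beside -7.29 in all macrophages). That subset held 212 cells, whereas only 26 macrophages had no UMI of the resident markers Mrc1 and Folr2. Most of its cells thus also carried a resident marker, and it is not a separate lipid-associated population.

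Whether the same genes differ with proliferation was tested within a lineage, comparing cycling with other cells of the same library. This contrast played no part in the choice of the genes. Cycling and other cells of a gate may also differ in subset and depth. Cycling B cells had on average 2.65 plasma markers against 1.68 in other B cells. Their median UMIs were 20012.5 to 21498 per library against 7501 to 8150. The part of subset and depth in the differences was not tested. The edgeR quasi-likelihood test, with library as a block and Benjamini-Hochberg adjustment over all genes tested, was applied to 551 cycling B cells, 936 cycling T cells and 162 cycling innate lymphoid cells. Because library is a block, the p-values reflect how evenly the difference between cycling and other cells recurred across the 4 libraries of pooled mice. Both temperatures are among them, so a cycling difference that changes with temperature adds to that spread.

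Most of the 10 genes fell in cycling cells. In B cells 7 were lower and none higher, the last also at an unadjusted p of 0.05, against 32.1% and 28.5% of all genes tested. In T cells 8 were lower and 1 higher, against 32.2% and 32%. In innate lymphoid cells 7 were lower and 2 higher, against 21.1% and 21.8%. The median log2 difference of the 10 genes was -1.27 in B, -1.21 in T and -0.84 in innate lymphoid cells, compared with -0.08, -0.04 and -0.06 over all genes.

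Pik3ip1 fell in all 3 lineages, by a log2 difference of -2.53 (SE 0.14, adjusted p = 3.05e-11) in B cells and -2.25 (SE 0.14, adjusted p = 4.82e-08) in T cells by edgeR. Cycling T cells had 14.6 and 16.5 CPM at the higher temperature and 2.87 and 1.86 CPM in the cold, below the other T cells of their own libraries at 66.8, 65.6, 19.4 and 19.5 CPM. Txnip fell by 1.64 in B cells, 1.45 in T cells and 1.28 in innate lymphoid cells on the log2 scale, and Pdcd4 fell by 1.57, 1.05 and 1.10. All 3 genes were lower in cycling cells in 4 of 4 libraries of each lineage.

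Klf2 took opposite directions by lineage. Cycling B cells had less Klf2, at 211, 105, 113 and 117 CPM against 381, 310, 291 and 362 CPM in the other B cells (log2 -1.31, SE 0.10, edgeR adjusted p = 2.04e-09). Cycling T cells had more, at 629, 602, 488 and 487 CPM against 287, 252, 211 and 180 CPM (log2 1.28, SE 0.06, edgeR adjusted p = 3.31e-09). Cycling innate lymphoid cells also had more, with a log2 difference of 0.91 (SE 0.12). The direction was the same in 4 of 4 libraries of each lineage. The difference between lineages, a test added after these values were seen, was 2.48 (SE 0.13, edgeR adjusted p = 9.84e-10) between T and B cells, a contrast in which 22.8% of all genes were called. Between innate lymphoid and B cells it was 2.29 (SE 0.19), with 13% of genes called. When cells with 5000 or more genes were kept, the T cell value was 0.79 and still past the threshold, whereas that of innate lymphoid cells was 0.20 and not past it.

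Irs2 and Trp53inp1 also differed by lineage. Irs2 in cycling innate lymphoid cells was at 9.95, 18.2, 7.25 and 18.2 CPM against 142, 143, 81.4 and 65.5 CPM, a log2 difference of -3.06 (SE 0.21, edgeR adjusted p = 1.03e-13). In T cells it fell by 1.88 and in B cells by 0.59. The fall was larger than in B cells by 1.40 (SE 0.19) in T cells and by 2.42 (SE 0.27) in innate lymphoid cells, both past the threshold. Cycling innate lymphoid cells had on average 3.17 of the 8 T markers, against 2.74 in the others. The stricter gate kept 1 to 8 of them per library. Outside the cycle at 30 °C, T cells with both γδ receptor transcripts had Irs2 at 83.3 and 98.2 CPM. Those without any γδ receptor UMI had 12.5 and 11.6 CPM. The part of such subsets in the Irs2 differences was not tested. Trp53inp1 fell in T cells (log2 -1.37) and innate lymphoid cells (log2 -0.85) but did not pass in B cells (log2 -0.25, SE 0.11). Its difference between T and B cells was -1.23 (SE 0.14, edgeR adjusted p = 5.96e-06). Between innate lymphoid and T cells, where 2.61% of all genes were called, none of the 10 genes differed after adjustment by edgeR, the single tool run on this contrast, and 5 had an unadjusted p under 0.05.

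Ddit4 did not pass the threshold for cycling in B cells (log2 -0.28, SE 0.13) or T cells (log2 -0.24, SE 0.15). Both passed, at -0.74 and -0.83, when cells with 5000 or more genes were kept. In B cells it also passed under the stricter gate (-0.51), with Scrublet cells removed (-0.30) and without the first cold library (-0.41), and in T cells without the second 30 °C library (-0.48) and in the 4 °C libraries alone (-0.80), whereas the 30 °C libraries alone gave 0.14. Its call in innate lymphoid cells (log2 0.36, SE 0.14, edgeR adjusted p = 0.0344) rested on the 30 °C libraries. Cycling innate lymphoid cells had 255 and 323 CPM of Ddit4 at 30 °C against 184 and 189 CPM in the others, but 49.9 and 38.1 CPM against 50.7 and 53.8 CPM at 4 °C. The value was 0.30 without the first and 0.13 without the second 30 °C library, neither past the threshold, and -0.20 in the 4 °C libraries alone. With cells of 5000 or more genes kept it was -0.27. Foxo1 fell in T cells (log2 -0.53, SE 0.06) and did not pass in B cells (log2 -0.01, SE 0.08) or innate lymphoid cells (log2 -0.15, SE 0.18), whereas with cells of 5000 or more genes it was at -0.41 and -0.45 there and passed, as did Trp53inp1 in B cells at -0.89. Trp53inp1 in B cells also passed with a mitochondrial limit of 15% (-0.28) and at 4 °C alone (-0.32). In innate lymphoid cells Sesn1 (log2 -0.83, SE 0.29) and Foxo3 (log2 -0.81, SE 0.33) passed, each with calls that were lost without single libraries: Sesn1 at -0.52 without the first 30 °C and -0.83 without the first 4 °C library, and Foxo3 at -0.79 without the second 30 °C, -0.91 without the first 4 °C and -0.53 without the second 4 °C library. Neither passed by DESeq2, nor did Ddit4.

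**Figure D3:**
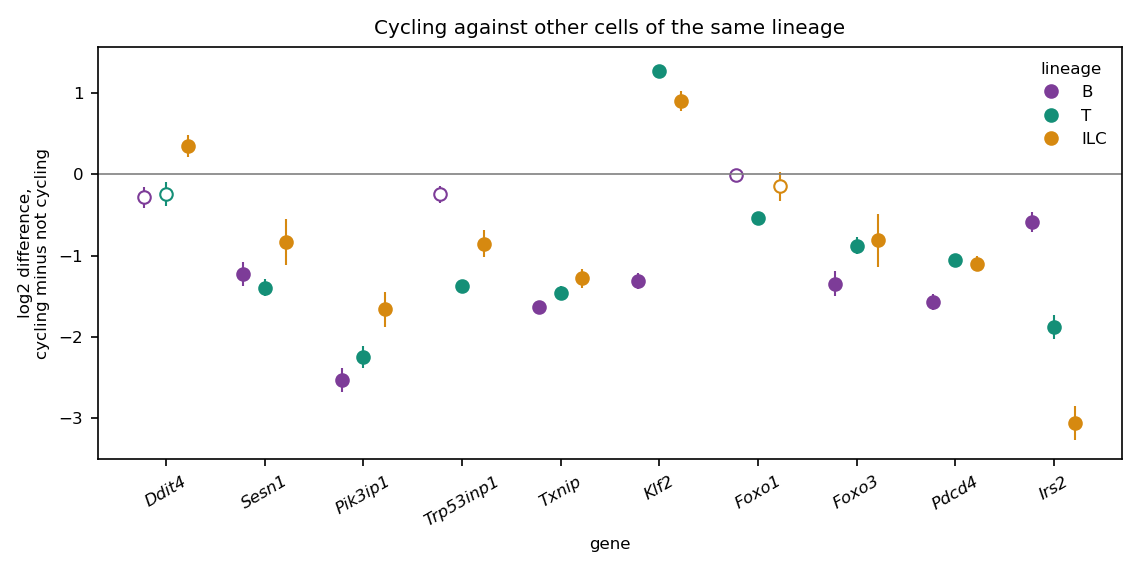
Log2 difference between cycling and other cells of the same lineage for each gene, with bars of 1 SE from 4 libraries. Filled points passed an edgeR adjusted p of 0.05. Klf2 lies at -1.31 in B cells and at 1.28 in T cells, whereas Pik3ip1, Txnip and Pdcd4 lie below 0 in all 3 lineages.

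The temperature difference was present in cycling cells as well. Ddit4 in cycling T cells was at 161 and 193 CPM against 39.5 and 37.9 CPM (log2 -2.19, SE 0.11), and in cycling innate lymphoid cells at 266 and 328 CPM against 48.4 and 39.3 CPM (log2 -2.72, SE 0.20). Pik3ip1 was lower by 2.84, 2.65 and 3.41 on the log2 scale in cycling B, T and innate lymphoid cells, with 6 and 9, 13 and 6, and 3 and 4 UMIs in the cold libraries. Klf2 in cycling innate lymphoid cells was higher at 4 °C, at 493 and 751 CPM against 842 and 763 CPM (log2 0.36), a value of 0.10 without the first and 0.70 without the second 30 °C library. In cycling B cells Trp53inp1 (log2 -0.63) was -0.31 without the first and -1.12 without the second cold library. Cycling macrophages numbered 16, 7, 13 and 2 and were not fitted. Their Ddit4 UMIs were 51 and 25 of 234783 and 103086 at 30 °C, and 1 and 0 of 167901 and 31520 at 4 °C.

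The pathway genes around the 10 were followed in 11 lists with 142 genes, also compiled with results of these data known. They were tested between 4 °C and 30 °C by edgeR's quasi-likelihood test over all genes of a population, 2 libraries against 2. In B cells 12 list genes rose and 18 fell of 126 measured, 23.8%, where 13.3% of all genes were called in either direction. In T cells 6 rose and 15 fell of 130 (16.2%, against 7.79% of all genes). In innate lymphoid cells 7 rose and 15 fell of 115 (19.1%, against 10.5%), in dendritic cells 5 rose and 3 fell of 103 (7.77%, against 1.41%), and in macrophages 10 rose and 25 fell of 120 (29.2%, against 17.2%). In cycling cells the called list genes were 4 of 109 in B cells (background 0.231%), 23 of 126 in T cells (8.84%) and 6 of 76 in innate lymphoid cells (1.34%). These shares of all genes, both directions together, are also the background for the counts of each list below. Of all genes called, 730 were higher and 805 lower in B cells, 399 and 503 in T cells, and 382 and 490 in innate lymphoid cells. In dendritic cells 69 were higher and 29 lower, and in macrophages 769 and 772. Because the lists were compiled with results of these data known, nothing is read from an excess over these shares. Without the first cold library the T cell lists had 39 calls, and without the second 43. In dendritic cells the 8 calls became 5 without the first cold and 13 without the second 30 °C library, and in cycling B cells the 4 calls became 12 without the first 30 °C and 2 without the first cold library.

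Of 25 FOXO targets, 4 fell and 2 rose of 23 measured in B cells, 4 fell and 1 rose of 23 in T cells, 5 fell and 1 rose of 21 in innate lymphoid cells, and 5 fell and 1 rose of 20 in macrophages. Il7r, the interleukin 7 receptor chain, fell in T cells from 880 and 877 CPM to 336 and 287 CPM (log2 -1.50, SE 0.07, edgeR adjusted p = 1.14e-05), and by 1.21 in dendritic cells and 2.26 in macrophages. The cell-death gene Bbc3 fell in T cells (log2 -1.15) and innate lymphoid cells (log2 -1.86). Bcl2l11, which encodes BIM, fell in B, T and innate lymphoid cells, the last from 63.7 and 46.6 CPM to 15.6 and 21.6 CPM, but rose in macrophages (log2 0.63). Fbxo32, a ubiquitin ligase gene, fell in macrophages from 47.4 and 41.7 CPM to 6.01 and 8.17 CPM (log2 -2.72, SE 0.26). Sesn3 rose by 0.30 in T cells and 0.65 in innate lymphoid cells. The dendritic list had 1 fall of 20, and in cycling B, T and innate lymphoid cells 2 of 20, 4 of 23 and 2 of 13 fell and 0, 1 and 0 rose.

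Of 10 FOXO regulators, Sgk3, a kinase related to AKT, fell in B cells from 92.6 and 98.4 CPM to 36.4 and 36.4 CPM (log2 -1.39, SE 0.06, edgeR adjusted p = 3.69e-07). In macrophages Sgk3 rose, from 53.2 and 56.2 CPM to 88.8 and 98.1 CPM (log2 0.76) and Sgk1 fell (log2 -1.71). In the other 6 populations none of the regulators passed by edgeR or DESeq2, with 5 of 46 tests at an unadjusted p under 0.05. Of the further genes of mTORC1 restraint, 2 of 15 fell and 2 rose in B cells (26.7%, beside 13.3% of all genes). In T cells 1 fell and 1 rose of 15 (13.3%, beside 7.79%), and in macrophages 1 of 16 fell (6.25%, beside 17.2%). That last gene was Sesn2, at 46.7 and 34.1 CPM against 7.65 and 5.45 CPM (log2 -2.52, SE 0.28). The restraint genes that fell elsewhere did so by less, with Tsc1 at -0.40 in B cells and Eif4ebp2 at -0.28 in B cells and -0.33 in T cells. Rises were of like size: the largest change of the list in B cells was a rise of Nprl2 (log2 0.55). The gene that rose in T cells was Sesn3 (log2 0.30), which was also the single call in innate lymphoid cells (log2 0.65).

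Of the genes of the mTOR complexes, 2 of 14 rose and 2 fell in B cells (28.6%, beside 13.3% of all genes), including Slc38a9 (log2 -0.34) and Rraga (log2 0.30), which act in amino-acid sensing at the lysosome. In macrophages 2 of 14 passed (14.3%, beside 17.2% of all genes), as Slc38a9 fell by 0.83 and Lamtor4 rose by 0.75, and in the other 6 populations none passed by edgeR or DESeq2, with 12 of 83 tests at an unadjusted p under 0.05. On the PI3K and insulin axis, Pik3r1, the regulatory subunit of PI3K, fell in T cells (log2 -0.43), innate lymphoid cells (log2 -0.68) and macrophages (log2 -0.93). The list had 2 falls of 16 in B cells (12.5%, beside 13.3% of all genes) and 1 of 16 in T cells (6.25%, beside 7.79%). It had 1 fall and 1 rise of 14 in innate lymphoid cells (14.3%, beside 10.5%). In macrophages 4 fell and 3 rose of 16 (43.8%, beside 17.2%).

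Genes known as outputs of mTORC1 through ATF4 and sterol regulatory factors mostly rose where they passed. In B cells 6 rose and 1 fell of 15, in T cells 3 rose of 16, in innate lymphoid cells 3 of 13, in dendritic cells 2 of 10, and in macrophages 1 rose and 1 fell of 12. Mthfd2, of mitochondrial folate metabolism, rose by 1.21 in innate lymphoid cells. Slc3a2, part of an amino-acid transporter, rose by 0.49 there and fell by 0.84 in macrophages.

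Among p53 targets, Cdkn1a, which encodes the cell-cycle inhibitor p21, rose in dendritic cells from 114 and 122 CPM to 411 and 404 CPM (log2 1.79, SE 0.15). In macrophages it fell from 402 and 339 CPM to 135 and 107 CPM (log2 -1.59, SE 0.13). Sesn2 in macrophages and Bbc3 in T and innate lymphoid cells were the other p53 targets that passed outside the cycle, and in B cells none passed by edgeR or DESeq2, with 3 of 11 at an unadjusted p under 0.05. Of the KLF family without Klf2, 3 genes fell and none rose in each of B cells, T cells, innate lymphoid cells and macrophages, of 10, 10, 10 and 9 measured. Klf9 fell in macrophages from 244 and 215 CPM to 20.2 and 19.7 CPM (log2 -3.51, SE 0.15) and in innate lymphoid cells from 135 and 125 CPM to 32.1 and 21.6 CPM (log2 -2.23, SE 0.16).

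The relatives and drivers of Txnip moved in part with it. Mlxip, which encodes MondoA, fell in B cells (log2 -0.94), T cells (log2 -1.02), innate lymphoid cells (log2 -0.70) and macrophages (log2 -1.24), whereas its partner Mlx rose in B cells (log2 0.47) and T cells (log2 0.38). Among α-arrestins, Arrdc4 fell in T and innate lymphoid cells, and Arrdc2 and Arrdc3 fell in macrophages, the latter from 229 and 192 CPM to 54.9 and 61.3 CPM. In dendritic cells and in cycling B and innate lymphoid cells none of the list passed by edgeR or DESeq2, with 3 of 12 tests at an unadjusted p under 0.05.

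Some genes of the glucocorticoid-induced list, which was compiled with results of this contrast known, fell in each population and none passed in the other direction. Of those measured, 4 of 8 fell in B cells, 5 of 9 in T cells, 5 of 7 in innate lymphoid cells, 2 of 6 in dendritic cells and 8 of 9 in macrophages. In cycling B, T and innate lymphoid cells 1 of 4, 4 of 8 and 3 of 6 fell. Fkbp5, a chaperone of the glucocorticoid receptor, fell in macrophages from 437 and 453 CPM to 16.9 and 9.53 CPM (log2 -4.93, SE 0.17) and in B cells from 72.6 and 65.9 CPM to 8.18 and 7.59 CPM (log2 -3.14, SE 0.08). Tsc22d3, or GILZ, fell in B cells (log2 -1.76), T cells (log2 -1.66), innate lymphoid cells (log2 -1.85) and dendritic cells (log2 -1.73). Genes of tissue dissociation stress rose in a few cases, Atf3 in macrophages from 136 and 194 CPM to 450 and 471 CPM, with 0 of 10 called in B cells by edgeR or DESeq2 (2 at an unadjusted p under 0.05), 1 of 10 in T cells, 2 of 10 in innate lymphoid cells, 2 of 9 in dendritic cells and 3 of 10 in macrophages. The part of either list in the differences of the 10 genes was not tested.

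**Figure D4:**
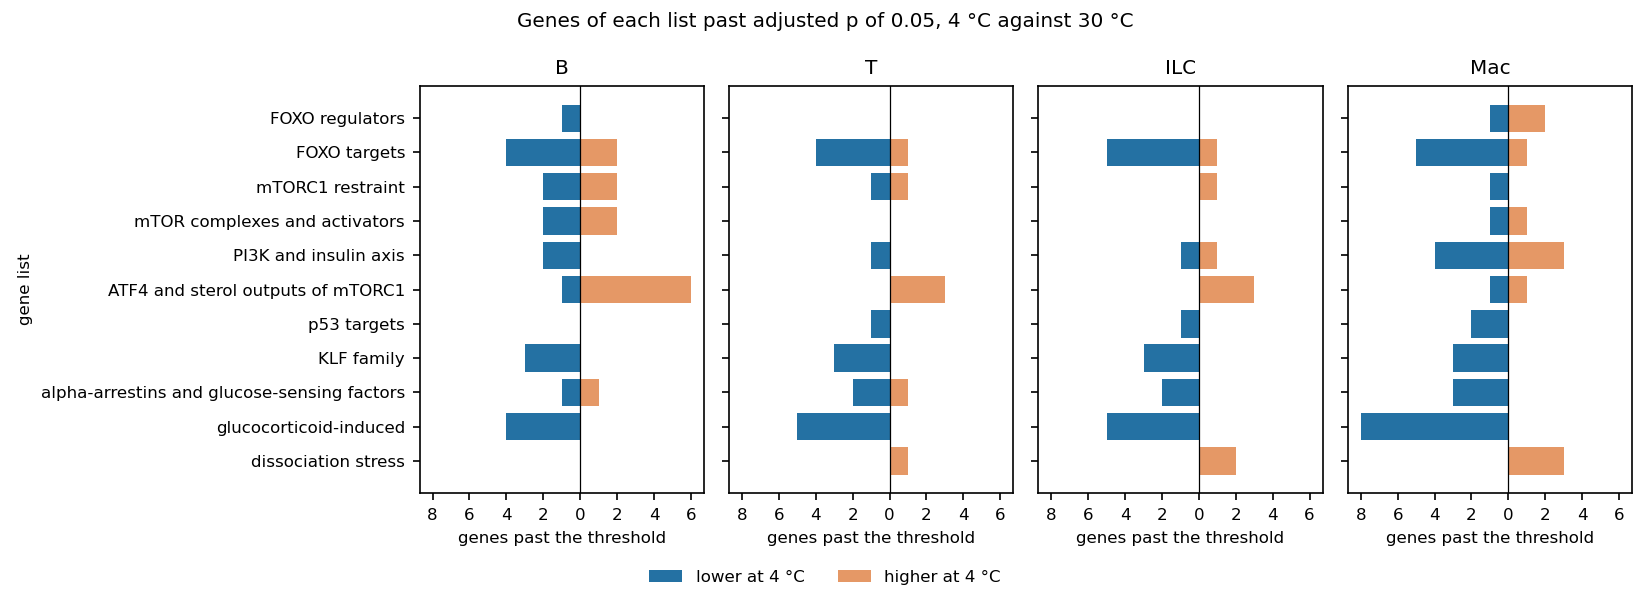
Number of genes in each list that passed an edgeR adjusted p of 0.05 at 4 °C against 30 °C, lower to the left and higher to the right, in B, T and innate lymphoid (ILC) cells and macrophages (Mac). The 10 chosen genes are left out. The glucocorticoid-induced list has 8 falls and no rise in macrophages, and the ATF4 and sterol list has 6 rises and 1 fall in B cells.

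The genes whose pattern over libraries was most like that of each gene were found by Pearson's r of log2 CPM across 32 sums from 8 populations, after each population's mean was taken away, among 9520 genes. The sums share libraries and the temperature contrast, so r is a description. For Ddit4 they were Anapc16 (r = 0.95), Fkbp5 (0.94) and Glul (0.92), and for Pik3ip1 they were Tsc22d3 (0.95), Anapc16 (0.94) and Rpl38 (0.90). Trp53inp1 was most like Ddit4 (0.91). Txnip was nearest to Sdhaf1 and Cirbp (0.92 and 0.91), Pdcd4 to Rpl37a and Foxn3 (0.92 and 0.92), and Sesn1 to Cpt1a (0.82). Foxo3 was nearest to Ncdn (0.85), Klf2 to Glb1 (0.77), Foxo1 to Odc1 (0.76) and Irs2 to Tcrg-C1 (0.75), a γδ receptor gene.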

How the data were processed

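The authors sorted live ChAT-eGFP+ cells, prepared 10x Genomics 3′ libraries and deposited, per library, a matrix of raw UMI counts per gene and cell. Cell Ranger is given as 3.0.0 in the file headers and 3.1.0 in the submitters' processing notes, which also name STAR, Seurat 4.2.0 and GRCm38/mm10. These deposited counts are not normalized. The members and lists were chosen with earlier results of these data known.

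Following the methods, cells needed at least 100 genes, then over 200 and under 5000 genes and under 7.5% mitochondrial UMIs, with genes kept if found in at least 10 cells of a library. Lineages were gated by how many marker genes had a UMI: at least 5 of 8 for B, 5 of 8 with 2 Cd3 genes for T, 3 of 8 with at most 1 Cd3 gene for innate lymphoid cells, 4 of 10 for dendritic cells and 6 of 10 for macrophages, with limits on other lineages' markers. Gates served against doublets, and Scrublet (scanpy 1.11.5) marked 1.87% to 2.66% of cells. UMIs were summed per library and population with at least 10 cells (not required under the stricter gate) and fitted in edgeR 4.0.16 with TMM, filterByExpr and glmQLFTest, with a threshold of 0.05 after Benjamini-Hochberg adjustment over all genes. DESeq2 1.42.0 was an alternative. Fold changes come with quasi-likelihood SEs. Tests were checked on simulated counts with known changes.

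Beside the members, up to 3 genes per list and population were named, those with the largest change that passed and did not overlap between temperatures. The lists were FOXO regulators, FOXO targets, mTORC1 restraint, mTOR complexes and activators, the PI3K and insulin axis, ATF4 and sterol outputs of mTORC1, p53 targets, the KLF family, α-arrestins and glucose-sensing factors, glucocorticoid-induced genes and dissociation stress. Likeness used log2 CPM with a prior of 1 CPM, sums of at least 20 cells and genes with at least 5 CPM on average. Some genes that met this rule are not reported here. List genes with opposite directions were named after their values were seen. Proportions and levels of the gated cells depend on the sort, and intervals cover counting error only.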

Additional observations from a re-analysis of the deposited data

Results flagged for a closer look

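Effects of cycling differed between lineages for several of the genes, by an edgeR interaction test that was added after the values had been seen. The log2 difference between cycling and other cells was higher in T than in B cells by 2.48 for Klf2 and by 0.41 for Pdcd4, and differed by -1.40 for Irs2, -1.23 for Trp53inp1 and -0.63 for Foxo1. Between innate lymphoid and B cells it differed by 2.29 for Klf2, 0.93 for Pik3ip1, 0.71 for Ddit4, 0.54 for Pdcd4 and -2.42 for Irs2. The edgeR adjusted p was 0.0439 for Pik3ip1 and 0.0203 for Ddit4. Of all genes, 22.8% were called between T and B cells and 13% between innate lymphoid and B cells. The part of subsets within a gate in these differences was not tested. The innate lymphoid value of Ddit4 was 0.65 in the 30 °C libraries alone and -0.20 in the 4 °C libraries alone.

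Some genes went opposite ways between 4 °C and 30 °C in different populations, each without overlap of the libraries. Depending on the population, 19.4% to 29.5% of all genes tested were lower without overlap. Whether the changes differ was not tested. As log2 fold changes, Foxo1 was at 0.19 (SE 0.06) in T cells but at -0.35 (SE 0.18) in innate lymphoid and -0.11 (SE 0.31) in dendritic cells. Irs2 was at 0.25 (SE 0.34) in dendritic cells. Its values were -0.20 in B cells, -1.43 in T cells, -0.94 in innate lymphoid cells, -0.66 in macrophages and -1.26 in cycling T cells. Both dendritic values lay within 1 SE of 0, so their direction is uncertain. Klf2 was at 0.36 in cycling innate lymphoid cells and at -0.53 in innate lymphoid cells outside the cycle, -0.48 in T cells and -0.33 in cycling T cells.

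Of the list genes, where each value passed the edgeR threshold in its own population, Cdkn1a was at 1.79 in dendritic cells and -1.59 in macrophages. Sgk3 was at -1.39 in B cells and 0.76 in macrophages, and Pik3cg at -0.55 in B cells, -0.47 in cycling T cells and 0.72 in macrophages. Bcl2l11 was at -0.71 in B cells, -0.61 in T cells, -1.60 in innate lymphoid cells and -1.30 in cycling B cells, but at 0.63 in macrophages. Slc3a2 was at 0.19 in B cells, 0.49 in innate lymphoid cells and -0.84 in macrophages. Phgdh was at -0.35 in B cells and 0.32 in T cells. These genes were flagged after the results were known.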

How the results depend on the processing

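Over the alternatives run, 1025 values of member fold changes between temperatures moved by less than 1 SD between replicates, 133 moved by more in the same direction or without a prior separation, and 2 reversed. The reversals were Txnip (0.21) and Foxo3 (0.41) in cycling innate lymphoid cells under the stricter gate, which left 1 to 8 such cells per library, below the 10 used elsewhere, so these values say little. Of the counts, 296 stayed within 1.5 times and 48 did not. Total UMIs in place of TMM (added after seeing the data) moved the median log2 fold change of all genes from about 0 to 0.10 in B cells and 0.11 in cycling B cells, and the share of calls that were higher from 47.6% to 79% in B cells, 44.2% to 62.4% in T cells, 43.8% to 61.1% in innate lymphoid cells and 44.5% to 69.2% in cycling T cells.

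Genes past the threshold under DESeq2 numbered 740 in B cells, 436 in T cells, 298 in innate lymphoid cells, 628 in macrophages, 312 in cycling T cells and 32 in cycling innate lymphoid cells, against 1535, 902, 872, 1541, 899 and 78, and list genes 11 in innate lymphoid, 5 in dendritic, 8 in cycling T and 3 in cycling innate lymphoid cells. The stricter gate gave 124 genes and 5 list genes in innate lymphoid cells. It gave 509 genes in cycling T cells and 2 list genes in cycling B cells. Cycling innate lymphoid cells had 0 genes by edgeR (64 at an unadjusted p under 0.05) and 0 list genes. There 3 members were lower without overlap. For cycling in innate lymphoid cells 3 members passed the threshold under this gate, and several others had too few counts to be tested. Without a filter on low counts there were 384 genes and 16 list genes in dendritic cells, 124 and 8 in cycling B cells, 56 and 4 in cycling T cells, and 121 genes in cycling innate lymphoid cells. Without an upper limit on genes, cycling B cells had 2 list genes and the Ddit4 cycling difference in innate lymphoid cells was -0.27.

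Leaving out 1 library gave 323 to 1750 genes and 14 to 43 list genes in T cells, 45 to 257 and 5 to 13 in dendritic cells, 19 to 195 and 2 to 12 in cycling B cells, and 71 to 121 genes in cycling innate lymphoid cells. The Foxo1 cycling difference in B cells, not past the threshold, lay near 0 and changed sign: 0.018 under the stricter gate, 0.0068 with the higher cycle limit, 0.020 under DESeq2, 0.035 at 4 °C alone and -0.048 to 0.030 without 1 library. Ddit4 cycling differences changed sign in T cells at 30 °C alone (0.14) and in innate lymphoid cells at 4 °C alone (-0.20). The causes were not tested.

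Library numbers were not taken to pair the samples. Deviations of same-numbered libraries correlated weakly, between -0.07 and 0.18, which does not exclude a shared batch. A replicate block gave 250 genes in dendritic cells (98 without it) and 208 genes (21 without it) and 8 list genes in cycling B cells. It gave 35 list genes in cycling T cells and left the other counts within 1.5 times. Dendritic and cycling innate lymphoid cells, with few cells, limit precision most.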

Other observations

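Cells of no lineage gate gave further values of the 10 genes, without a test. Plasma cells (106, 77, 82 and 81 in the 4 libraries) had Sesn1 at 140 and 128 CPM at 30 °C and at 17.3 and 16.6 CPM at 4 °C (log2 -2.98, SE 0.16). Their Ddit4 was at 60.4 and 34.2 CPM against 3.97 and 7.18 CPM, and Trp53inp1, at 753 and 677 CPM against 346 and 361 CPM, was counted far more than in the lymphocytes. Foxo1 was higher in the cold in plasma cells, from 18.1 and 14.2 CPM to 24.9 and 20.4 CPM (log2 0.48, SE 0.25).

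Stromal cells (19 to 28 per library) had Ddit4 at 172 and 213 CPM against 3.4 and 12.4 CPM, the latter from 1 UMI and 2 UMIs, and Txnip at 2089 and 2268 CPM against 1351 and 1156 CPM. Endothelial cells (12 to 37 per library), whose flow-sensing factor is Klf2, had Klf2 at 3739 and 3378 CPM against 2025 and 1209 CPM (log2 -1.14, SE 0.23), and Foxo3 at 62.6 and 82.3 CPM against 6.84 and 15.4 CPM, from 22 and 16 against 1 and 2 UMIs.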
